A study of Mus musculus with 6 samples.

Results

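The genes described are 10 components of the Notch pathway, measured in the retina of mouse embryos with and without the T-box transcription factor Tbx3. They were picked by gene symbol from the 26147 genes of the deposited table, and all 10 were found: the receptors Notch1, Notch2 and Notch3, the Delta-like ligands Dll1, Dll3 and Dll4, the transcriptional effectors Hes1, Hes5 and Hey1, and Hes6. Each of the 10 passed the filter on low values (at least 10 in at least 3 libraries), as did 18914 genes in all. Retinas were taken at embryonic day 13.5 from embryos on a C57BL/6J background, with 3 libraries per genotype. The knockouts, called Tbx3 cKO, carried the Dkk3-Cre transgene (Tg(Dkk3-cre)D9Tfur) and 2 deleted floxed alleles of Tbx3. The wild types were siblings without Cre that had 1 floxed and 1 normal allele, so the effects of Cre and of losing Tbx3 cannot be told apart. How many embryos or litters stand behind a library is not stated in the labels. The p-values therefore set the difference between genotypes against the spread among these 6 samples, and may not extend to other embryos or litters. Some of that spread may be technical.

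In Notch signalling a ligand on 1 cell binds a receptor on its neighbour, the receptor is cut, and its intracellular part enters the nucleus and joins the DNA-binding protein Rbpj to switch on genes of the Hes and Hey families. Hes1, Hes5 and Hey1 are repressors of neuronal genes and hold retinal progenitors in the dividing state. Dll1, Dll3 and Dll4 are made by cells that are leaving the cycle to become neurons, and Hes6 is a Hes relative that is found in such cells and counteracts Hes1.

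Upstream sequence is shown for 3 of the 10 genes, since Hes5 is the effector with the widest range of values and Dll1 and Dll4 are ligands of known Hes regulation. The sequences are from RefSeq on build GRCm38.p6, another build than the GRCm39 named in the submitters' processing notes. Each line gives the 250 bases before the annotated start, 5′ to 3′ on the gene's strand. Capitals mark matches, searched on both strands. The Rbpj core was taken as TGGGAA with GTGGGAA as its longer form. For Hes and Hey proteins the N box was taken as CACNAG, the E box as CACGTG and the related class C site as CACGCG in each sequence.
Hes5 (chr4:154960673-154960922, plus strand): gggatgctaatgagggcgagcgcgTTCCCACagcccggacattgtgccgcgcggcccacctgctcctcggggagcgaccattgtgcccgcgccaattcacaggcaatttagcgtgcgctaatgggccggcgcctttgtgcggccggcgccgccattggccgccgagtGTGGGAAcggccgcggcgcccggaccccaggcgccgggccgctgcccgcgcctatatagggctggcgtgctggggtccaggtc
Dll1 (chr17:15376933-15377182, minus strand): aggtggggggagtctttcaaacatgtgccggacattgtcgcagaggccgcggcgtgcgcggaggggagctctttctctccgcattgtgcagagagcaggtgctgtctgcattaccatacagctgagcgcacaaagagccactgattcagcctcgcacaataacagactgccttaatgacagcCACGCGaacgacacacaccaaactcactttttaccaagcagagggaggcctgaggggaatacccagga
Dll4 (chr2:119325534-119325783, plus strand): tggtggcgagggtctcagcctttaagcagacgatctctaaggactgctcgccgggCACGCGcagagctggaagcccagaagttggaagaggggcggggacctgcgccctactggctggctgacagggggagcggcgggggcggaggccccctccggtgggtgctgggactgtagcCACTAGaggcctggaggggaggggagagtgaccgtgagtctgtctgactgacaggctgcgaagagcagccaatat

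Hes5 holds the 7-base Rbpj form GTGGGAA on both strands, beginning 226 and 83 bases before the start, and it was the only 1 of the 8 matched members with any TGGGAA. Of all 32851 promoters of 300 bases (250 before and 50 after the start), 25.6% hold TGGGAA and 6.38% hold GTGGGAA, which contains it. Dll1 has 2 annotated starts. It has CACGCG 68 bases before the start shown, and the window of the other start holds none of the motifs. Dll4 has CACGCG 195 bases before its start. Dll4 also has CACTAG, a match to the N box, 75 bases before its start. Over all promoters 9.27% hold CACGCG, 7.15% hold CACGTG and 42.5% hold CACNAG. The table has no entry for Hes1 or Hey1.

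Tbx3 (ENSMUSG00000018604) was read first as a check of the genotypes. Its normalized values (read counts per gene, scaled per library by the authors) were 1998 to 2577 in the wild types and 40.3 to 58.9 in the knockouts. Libraries held an estimated 21482340 to 27173677 reads. Over all genes, limma-trend called 12 at an adjusted p under 0.05, or 0.0634% of those tested. The values of the groups did not overlap in 22.4% of genes. Markers of the retina were present in all 6 libraries, with Pax6 at 17968 to 18941. Tbx3 cKO 3 stood apart from the other 5. Its neurogenic factor Atoh7 was 4.21 against 6024 to 17556, and the summed level of 9 pigment epithelium markers was 29965 against 893 to 7629. Wild type 1 lay at the other end, with the highest summed level of retinal ganglion cell markers (93352 against 905 to 27786) and the lowest of pigment markers. Results are therefore also given without these libraries. In whole tissue, fewer cells of a type and less RNA per cell cannot be told apart.

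Hey1 was the 1 gene among the 10 whose groups did not overlap, while Hes1 and Hes5, the other effectors, all receptors and ligands, and Hes6 overlapped. None of the 10 passed limma-trend after adjustment over all genes, against 1 (Hey1) at an unadjusted p under 0.05. Limma-voom on estimated reads gave the same counts, 0 and 1. Over the whole table the adjusted threshold was passed by 0.0317% of genes with a lower and 0.0317% with a higher level. The unadjusted one was passed by 7.16% (lower) and 6.39% (higher), 13.5% in all. Groups did not overlap with the knockouts lower in 11.7% of genes and with the knockouts higher in 10.6%. The log2 fold change was below 0 for 7 of the 10, and for 52.0% of all genes. Without Tbx3 cKO 3 it was below 0 for 5 of the 10, and with wild type 1 dropped too for 3. A share of 1 in 10 is near that background and is not a result about the pathway.

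**Figure D1:**
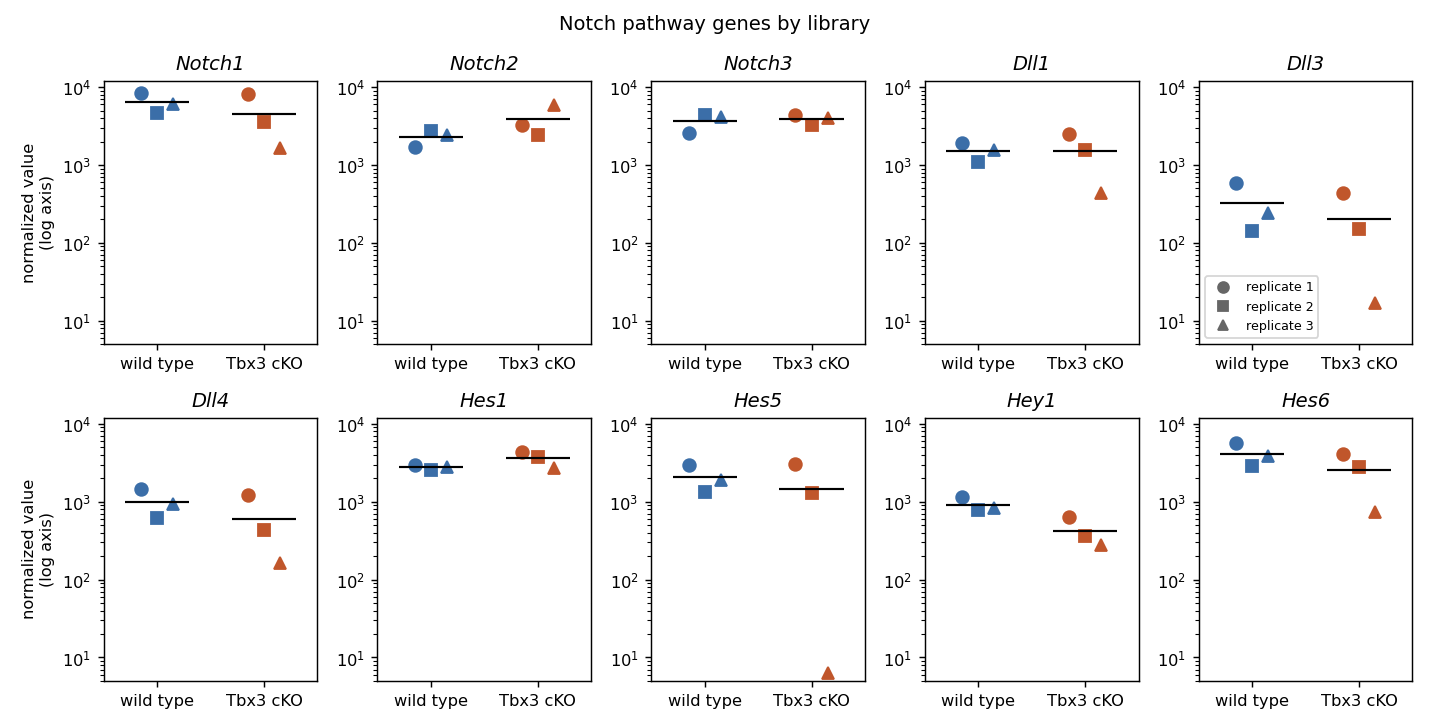
Normalized values of the 10 genes (log axis) in 3 wild-type (blue) and 3 Tbx3 cKO (orange) libraries; symbols give the replicate and black lines the group means. The orange triangles (Tbx3 cKO 3) are the lowest point of 7 panels, and Hey1 is the panel with no overlap between the groups.

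Among the effectors, Hey1 (ENSMUSG00000040289), a repressor that acts as a partner of Hes proteins and is also made by endothelium, had values of 1139, 772 and 837 in the wild types and 631, 361 and 277 in the knockouts. Every knockout library lay below every wild-type library. The means were 916 ± 196 and 423 ± 185 (SD, n = 3 each), a 2.17-fold lower level in the knockouts. The log2 fold change was -1.18 (SE 0.31, 95% interval -1.92 to -0.44). The limma-trend p was 0.00689 before and 0.309 after adjustment, and the adjusted p ran from 0.112 to 0.654 over 17 alternatives. By an exact two-sided permutation test p was 0.1, which is the smallest p for 3 against 3. Without Tbx3 cKO 3 the log2 fold change was -0.92, and with wild type 1 dropped too it was -0.75, so the sign did not rest on the libraries that stand apart.

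Hes1 (ENSMUSG00000022528), which keeps progenitors from differentiating, had values of 2993, 2567 and 2780 in the wild types and 4306, 3750 and 2746 in the knockouts. Tbx3 cKO 1 and 2 lay above all wild types and Tbx3 cKO 3 lay within their range. Both of those libraries were above every wild type in 14.7% of all genes. The log2 fold change of Hes1 was 0.35 (SE 0.17, 95% interval -0.06 to 0.76, limma adjusted p = 0.40). Without Tbx3 cKO 3 it was 0.53 (95% interval 0.25 to 0.82), with a limma adjusted p of 0.401. The adjusted p was 0.199 to 0.679 over the alternatives.

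Hes5 (ENSMUSG00000048001), an effector of neural progenitors, had values of 3002, 1323 and 1880 in the wild types and 3045, 1311 and 6.32 in the knockouts. The value in Tbx3 cKO 3 equals 6.00 estimated reads, with a 95% Poisson interval of 2.32 to 13.7 normalized units that covers counting error only. It was 0.482% of the next lowest library, whereas Hes1 in the same library was 107% of the lowest other library. Tbx3 cKO 1 and 2 lay close to the highest and the lowest wild type. The log2 fold change was -2.67 (95% interval -7.55 to 2.22, limma adjusted p = 0.555), and without Tbx3 cKO 3 it was 0.03 (95% interval -1.07 to 1.14). The lower mean of Hes5 in the knockout thus rested on 1 library.

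The ligands showed the same division by library. Dll1 (ENSMUSG00000014773), an activating ligand of early neurogenesis, was 1896, 1102 and 1583 in the wild types and 2534, 1542 and 436 in the knockouts. The knockouts held both the highest and the lowest of the 6 values. Its log2 fold change was -0.32 (95% interval -1.74 to 1.10) with all libraries and 0.41 (-0.31 to 1.13) without Tbx3 cKO 3, a change of sign. Dll3 (ENSMUSG00000003436), a divergent ligand that does not activate receptors on neighbours, was 587, 144 and 240 against 437, 151 and 16.8. Its last value equals 16.0 estimated reads. Dll4 (ENSMUSG00000027314), a ligand of neurogenic progenitors and of endothelium, was 1460, 613 and 935 against 1207, 430 and 163. Its values in Tbx3 cKO 2 and 3 were under the lowest wild type, and that in Tbx3 cKO 1 was within their range. The log2 fold changes of Dll3 and Dll4 were -1.37 and -1.10 with all libraries, and 0.47 and -0.07 with Tbx3 cKO 3 and wild type 1 left out. Limma adjusted p of the 3 ligands was 0.477 to 0.819.

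Hes6 (ENSMUSG00000067071) was 5681, 2865 and 3827 in the wild types and 4059, 2809 and 746 in the knockouts, again overlapping, with a log2 fold change of -0.96 (95% interval -2.38 to 0.47, limma adjusted p = 0.478) that was 0.03 with Tbx3 cKO 3 and wild type 1 dropped. The summed neurogenic progenitor and ganglion cell markers were, like the ligands and Hes6, lowest in Tbx3 cKO 3, and both sums were highest in wild type 1. All 10 neurogenic progenitor markers had a negative log2 fold change (median -2.89, and -0.017 over all genes tested), and 5 of the 10 did not overlap. Their summed level was 22406 to 41521 in the wild types and 962 to 23529 in the knockouts, and Neurod1 was at 0 in Tbx3 cKO 3, where a value of 0 allows up to 3.16. Without Tbx3 cKO 3 the marker median was -0.93, against -0.08 for the ligands. Ganglion cell markers summed to 16377 to 93352 against 905 to 10308 (11 of 11 negative, median -3.61), with Pou4f2 at 0 in Tbx3 cKO 3. Dropping Tbx3 cKO 3 and wild type 1 left all 11 negative, with a median of -1.46. Amacrine and horizontal cell markers summed to 9001 to 13037 against 2641 to 7256. Photoreceptor precursor markers summed to 9236, 2558 and 3383 against 2158, 1902 and 5687, so Tbx3 cKO 3 was their highest knockout. Multipotent progenitor markers summed to 153792 to 207229 against 59790 to 143327. Ccnd1 alone was 80640 of the wild type 1 sum. Of these 10 markers 8 had a negative log2 fold change (median -0.69) and 2 a positive one. Their median was -0.19 with Tbx3 cKO 3 and wild type 1 dropped. Lhx2 was higher in every knockout (4540, 4322 and 4903 against 9661, 8276 and 7402), and Pax6 was level (log2 fold change 0.006). The part of the cells of these lists in the values of the ligands and Hes6 was not tested.

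**Figure D2:**
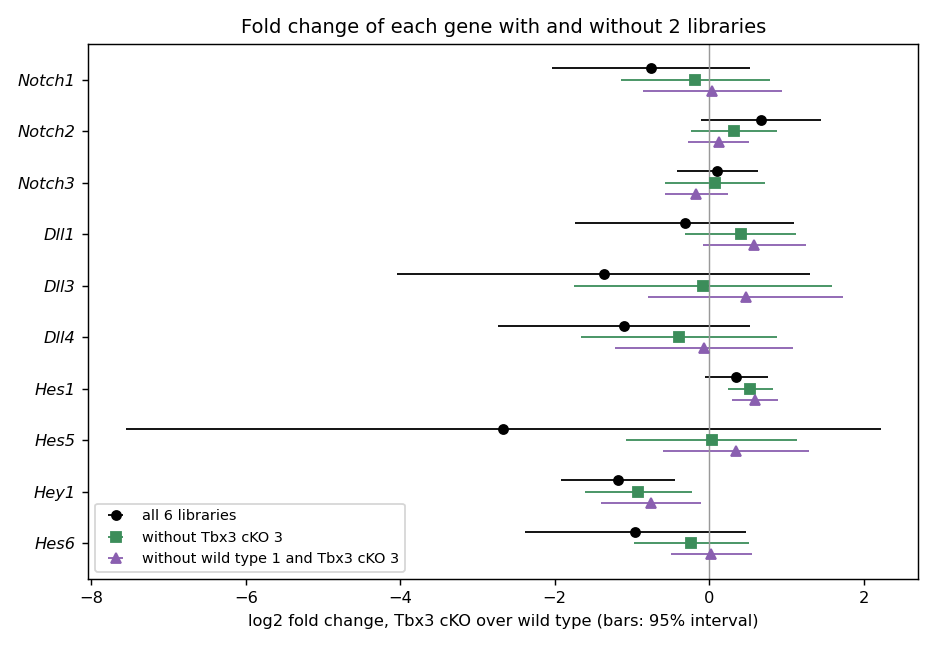
Log2 fold change of each gene, Tbx3 cKO over wild type, by limma-trend with its 95% interval, for all 6 libraries (black), without Tbx3 cKO 3 (green) and without wild type 1 and Tbx3 cKO 3 (purple). Hey1 and Dll4 stay below 0 and Hes1 and Notch2 above 0 in all 3 fits, while the other 6 genes change sign in at least 1 of them.

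The 3 receptors each had a different pattern. Notch1 (ENSMUSG00000026923), the main receptor of retinal progenitors, was 8438, 4636 and 6056 in the wild types and 8244, 3610 and 1660 in the knockouts. Its log2 fold change was -0.75 (95% interval -2.04 to 0.53, limma adjusted p = 0.528) and 0.04 with Tbx3 cKO 3 and wild type 1 dropped. Notch2 (ENSMUSG00000027878), a receptor made by progenitors, pigmented cells and other cells of the eye, was 1722, 2735 and 2443 against 3240, 2446 and 5887. Tbx3 cKO 3 was its highest library and wild type 1 its lowest, the reverse of Notch1. The log2 fold change of Notch2 was 0.67 (95% interval -0.11 to 1.45, limma adjusted p = 0.40). It was 0.32 without Tbx3 cKO 3 and 0.12 (95% interval -0.27 to 0.52) with wild type 1 dropped too. Notch3 (ENSMUSG00000038146), known in mural cells of vessels and in neural progenitors, was 2559, 4340 and 4147 against 4428, 3231 and 4012, and differed by a log2 fold change of 0.11 (95% interval -0.42 to 0.64, limma adjusted p = 0.84).

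Markers of cells other than neural retina also differed between libraries. All 9 pigment epithelium markers had a positive log2 fold change (median 1.80), and their summed level was 893 to 6365 in the wild types and 6159 to 29965 in the knockouts, with none at 0. Of 12 tested mural cell and mesenchyme markers 11 were positive (median 1.56), with a summed level over 13 of 595 to 5794 against 2437 to 13447. Of 14 endothelial markers 13 were positive (median 1.40), with a summed level of 4702 to 4760 against 4033 to 6517. Kdr, the most abundant of them, was the negative one, and it was 4232 of the 4760 in wild type 1. The narrow wild-type range of the sum therefore does not show equal levels of the other endothelial markers. The mean log2(value + 1) of the list was 5.3, 7.4 and 7.0 in the wild types and 8.0, 7.1 and 8.1 in the knockouts. All 10 macrophage markers were higher without overlap (summed level 752 to 1382 against 2828 to 5620), and red blood cell markers summed to 64177 to 97367 against 195120 to 634439. Ciliary margin markers summed to 18141 to 42540 against 43463 to 69704, and optic stalk and astrocyte markers to 514 to 1375 against 1688 to 3948. Lens markers, 9 of 9 negative (median -2.23), were low (602 to 1041) in wild type 1, Tbx3 cKO 1 and Tbx3 cKO 3 and high (58711 to 160800) in the other 3 libraries. The part of any of these cells in the values of the 10 genes was not tested.

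Over the 6 libraries, 8 of the 10 genes took 1 order, with wild type 1 above 3 above 2 and Tbx3 cKO 1 above 2 above 3. That order was picked after the values of these genes were seen, and no other order was counted. It occurred in 7.57% of all tested genes, a share that is no test of the 10. The exceptions were Notch2 and Notch3. As a description over 6 libraries that share these genotypes, Notch1 and Dll4 had a Pearson correlation of 0.997 on the log2(value + 1) scale, Dll3 and Hes6 of 0.988, and Notch2 and Hes6 of -0.909. Hes1 and Hey1 had one of -0.17. Notch1, Dll3, Dll4 and Hes6 were each lowest in Tbx3 cKO 3, and Notch2 was highest there. Correlations without that library were not computed.

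**Figure D3:**
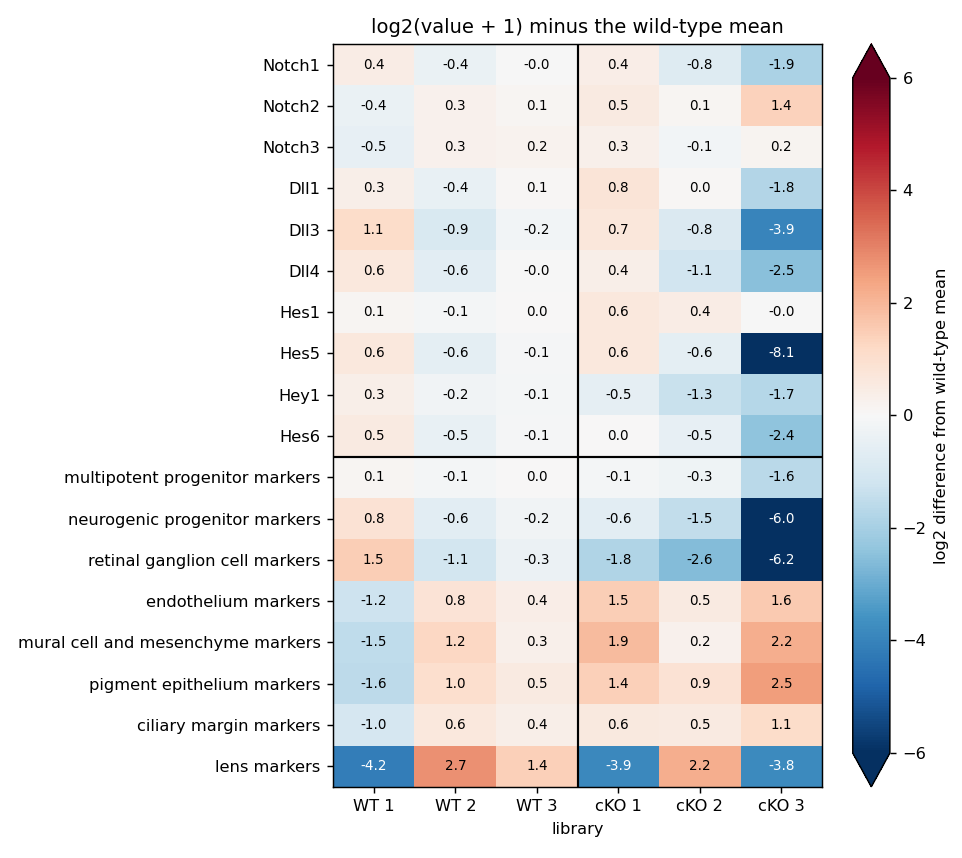
Difference of log2(value + 1) from the wild-type mean in each library, for the 10 genes and for the mean of 8 marker lists (colour limits at 6 and -6). Tbx3 cKO 3 shows -8.06 for Hes5 and -5.96 for neurogenic progenitor markers beside -0.01 for Hes1 and 2.5 for pigment epithelium markers.

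Ligands and effectors were set against each other inside each library as the mean log2(value + 1) of Dll1, Dll3 and Dll4 minus that of Hes1, Hes5 and Hey1. The difference was -0.88, -1.58 and -1.21 in the wild types and -0.88, -1.38 and -0.71 in the knockouts. The groups overlapped, and the gap of 0.24 between their means was under the pooled SD of 0.35. The gap rested on single libraries, at 0.06 without wild type 2, 0.10 without Tbx3 cKO 3, 0.41 without wild type 1 and 0.43 without Tbx3 cKO 2.

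Ratios of genes within a library do not depend on how the libraries were scaled. Of the 45 pairs of members, 8 had ratios without overlap between groups, examined after the values were seen. Each is written with the gene on top that makes the knockouts lower, so that direction is not a result. The share over all pairs of genes was not computed, and the shares given below count ratios lower in the knockouts only. Hey1 over Hes1 was 0.381, 0.301 and 0.301 in the wild types and 0.147, 0.0962 and 0.101 in the knockouts, a 2.86-fold lower mean. Each knockout library was under the lowest wild type by a wide margin, Tbx3 cKO 3 among them. Of all other genes, 29.4% had a ratio to Hes1 that was lower without overlap. Hes5 over Hes1 was 1.003, 0.515 and 0.676 against 0.707, 0.349 and 0.0023, and overlapped.

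Hes6 over Dll1 was 2.996, 2.60 and 2.42 in the wild types and 1.60, 1.82 and 1.71 in the knockouts, so the knockout libraries lay close together although Hes6 and Dll1 each differed several-fold among them. Dll4 over Dll1 was 0.77, 0.556 and 0.59 against 0.476, 0.279 and 0.374. Notch1 over Dll1 was 4.45, 4.21 and 3.83 against 3.25, 2.34 and 3.81, with the highest knockout just under the lowest wild type. A ratio to Dll1 lower without overlap was found in 2.58% of all other genes. The share that was higher without overlap was not computed. These pairs were picked after their values were seen, so 2.58% does not measure how rare they are. These 3 ratios share Dll1, and the exact permutation p of each was 0.1, the smallest that this design allows. The other 4 pairs, again written so that the knockouts were lower, were Hes6 over Hes1, Hey1 over Notch2, Hey1 over Notch3 and Notch3 over Notch2. A ratio to Notch2 that was lower without overlap was found in 19.2% of other genes, and one to Notch3 in 4.26%.

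**Figure D4:**
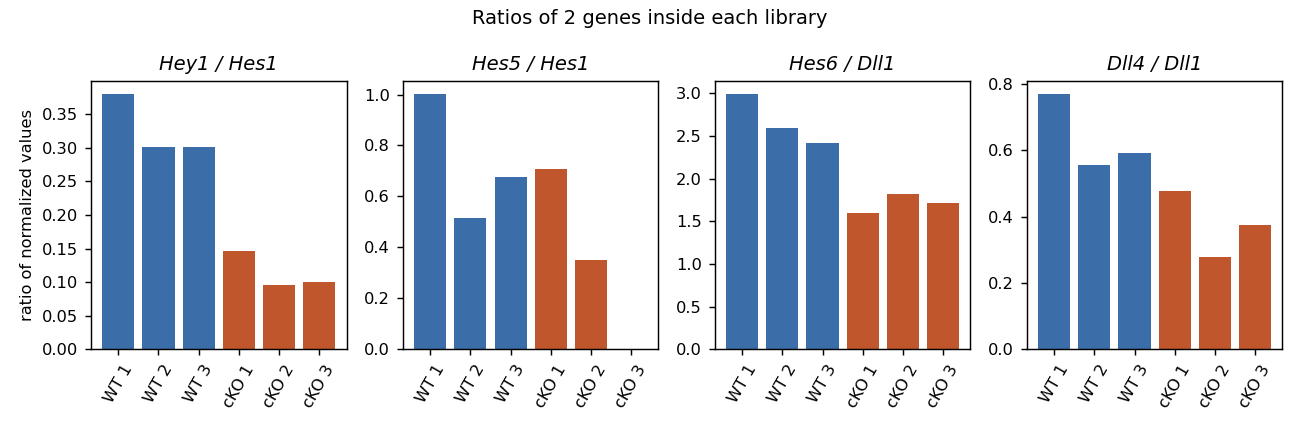
Ratio of the normalized values of a pair of genes inside each library, wild type in blue and Tbx3 cKO in orange, with axes from 0. The knockout bars of Hey1 over Hes1, Hes6 over Dll1 and Dll4 over Dll1 are all under the wild-type bars, and those of Hes5 over Hes1 are not.

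Levels of different genes can be set side by side only per length, taken here as the normalized value per kb of exon in the GENCODE M21 annotation (GRCm38). In wild type Hes6 had the highest level at 2281 ± 792 per kb (SD, n = 3), followed by Hes5 at 1517 ± 627 and Hes1 at 1365 ± 105. In single libraries Hes6 ranged from 1585 to 3142 per kb and Hes5 from 970 to 2202, so these neighbours overlapped. Hes1 ranged from 1260 to 1470, overlapping Hes5 but not Hes6. The receptors Notch3 and Notch1 were next, at 455 ± 121 and 448 ± 135 per kb, then Dll1 at 362 ± 94.8, Hey1 at 281 ± 59.97, Dll4 at 260 ± 111, Notch2 at 213 ± 48.4 and Dll3 at 114 ± 81.9. The highest of these 7 in any wild-type library was 593 per kb, below every wild-type value of Hes1. Among them, each gene overlapped its neighbour in the order over the 3 wild-type libraries. In Tbx3 cKO, Hes1 had the highest mean at 1768 ± 388 per kb, and Hey1 had 130 ± 56.7.

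The rest of the pathway was read from a list of 47 genes in 8 roles, of which 46 were in the file and 44 were tested. None passed limma-trend after adjustment. Unadjusted, 4 were lower (Dlk2, Adam10, Rbpj and Dtx4) and 2 higher (Mib2 and Dtx3) at p under 0.05. Without overlap 6 were lower and 3 higher. These shares are near those of all genes. The median log2 fold change was -0.12, and -0.04 with Tbx3 cKO 3 and wild type 1 dropped.

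In the nucleus, Rbpj, the DNA-binding partner of every Notch receptor, was 7026, 4804 and 5367 in the wild types and 4656, 3737 and 3170 in the knockouts. The groups were just without overlap (4804 against 4656), and Tbx3 cKO 3 was lowest (limma adjusted p = 0.331 for a log2 fold change of -0.57, SE 0.19). Without Tbx3 cKO 3 no gene of the nuclear complex had an unadjusted limma-trend p under 0.05. The other genes of the nuclear complex overlapped, Snw1 with 3587 ± 210 against 3195 ± 543 among them. Of the feedback genes and inhibitors, Dtx4, an E3 ligase that acts on Notch, was 9723, 7211 and 8883 against 7108, 5210 and 2380, just without overlap (log2 fold change -0.94, limma adjusted p = 0.36). Its relative Dtx3 went the other way, at 2712, 3067 and 3202 against 4872, 3825 and 4850, and had the smallest p of the list (log2 fold change 0.59, SE 0.13, unadjusted p = 0.0026, limma adjusted p = 0.27). Nrarp, a target and feedback inhibitor of the pathway named here after its values were seen, was 2598, 1886 and 2100 against 1835, 1401 and 410.

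**Figure D5:**
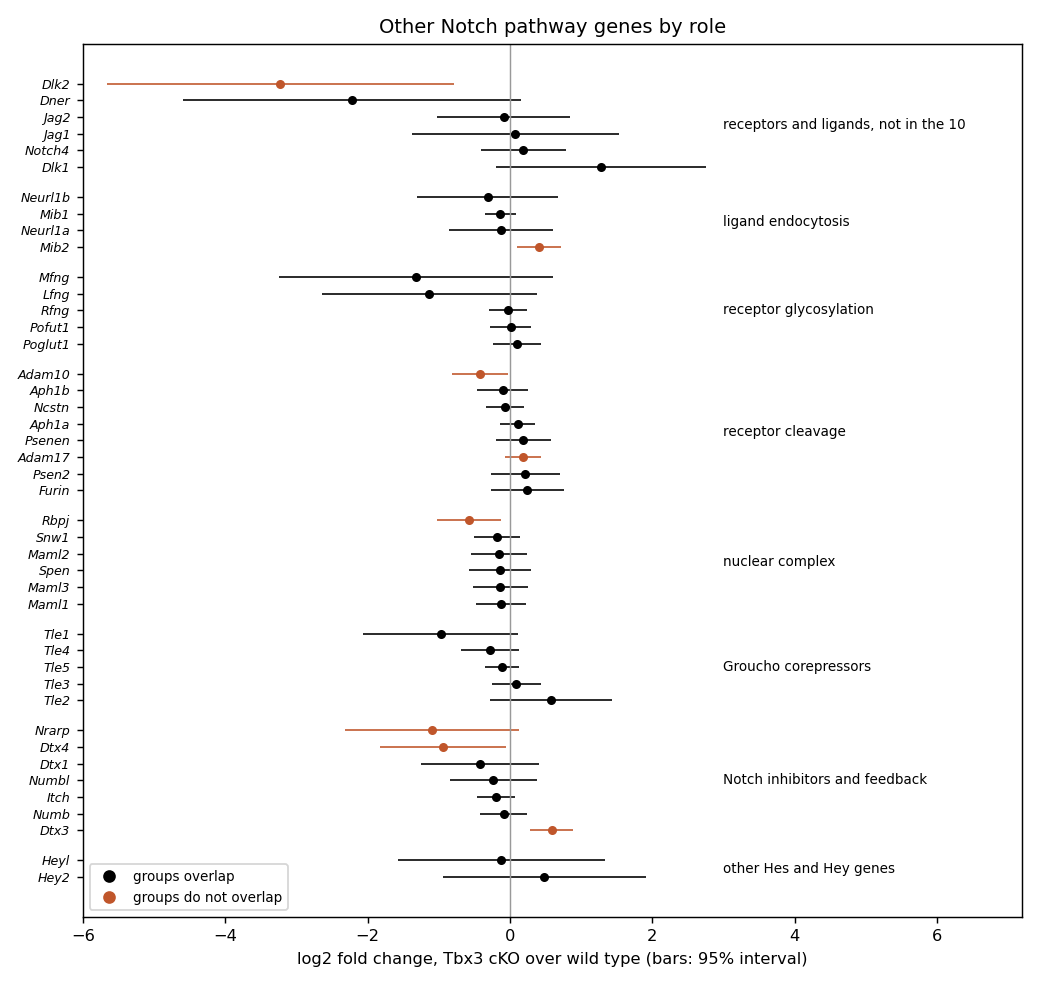
Log2 fold change, Tbx3 cKO over wild type, with its 95% interval by limma-trend for 43 of the 44 tested pathway genes outside the 10, ordered by role; orange marks genes whose groups do not overlap. Orange points lie on both sides of 0, with Rbpj, Dtx4 and Nrarp below it and Dtx3 and Mib2 above.

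Of the sugar transferases that tune ligand choice, Lfng was 754 ± 260 against 419 ± 274 and Mfng was 817 ± 232 against 471 ± 383 (log2 fold changes -1.13 and -1.32, limma adjusted p = 0.442 and 0.473). Both overlapped, with Tbx3 cKO 3 lowest at 111 and 76.8. Among the proteases that cut the receptor, Adam10 was 6474, 4550 and 4413 against 3388, 3940 and 4033, without overlap (log2 fold change -0.42, limma adjusted p = 0.356). The ligand ubiquitin ligase Mib1 was 7678 ± 390 against 6984 ± 372, overlapping, and Mib2 was 680 ± 54.9 against 907 ± 93.0, without overlap (limma adjusted p = 0.328). Of the Groucho corepressors that Hes proteins recruit, Tle1 was 3689, 2359 and 2964 against 2426, 2048 and 684, and Tle4 was 2758 ± 208 against 2311 ± 558.

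Of the ligands and receptors outside the 10, the non-canonical ligands Dlk1 and Dner were 100.4 ± 59.98 against 255 ± 192 and 429 ± 439 against 99.9 ± 97.1, and overlapped. Jag1, a ligand of the ciliary margin and other tissues, was 527, 3003 and 1888 against 1047, 1543 and 2173, named here after its values were seen. Of the other Hes and Hey genes, Heyl was 388 ± 181 against 406 ± 258, Hes2 and Hes7 were under the filter, and Hes3 is not among the rows used here.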

How the data were processed

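Polyadenylated RNA of 6 retina samples was sequenced from strand-specific libraries, per the labels' protocols. The deposited values are a signal: read counts per gene scaled by 1 factor per library by the authors. The tools named per the submitters' processing notes are STAR 2.7.8a, Partek and cutadapt 4.2, with build GRCm39. No source used here gives the counter, annotation, use of strand or scaling method. Median-of-ratios factors computed from the deposited values were 1.009 in every library. Reads were estimated from the smallest frequent value per library (0.897 to 1.138), and whole reads could not be recovered for all genes.

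Values were taken as log2(value + 1), which understates changes of low genes. Genes with at least 10 in at least 3 libraries (18914) were compared with limma-trend (limma 3.58.1, R 4.3.3), two-sided, Benjamini-Hochberg, threshold 0.05, no covariate. Single genes were also compared with exact permutation tests (SciPy 1.17.1). The fit was tested on simulated data. Named were the 10 genes and Tbx3, the 2 pathway genes of smallest p per role with a mean of at least 100 in a group, the 2 most abundant markers of each list where used, and the 3 genes (mean at least 500) most correlated with Hes1, Hes5, Dll1 and Hes6. Other genes were named after their values were seen, among them Pax6 and Neurod1. A few items are not reported here. Members, lists and tests were chosen with earlier results of these data known. Alternatives covered pseudocount, filter, scaling, model and left-out libraries.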

Additional observations from a re-analysis of the deposited data

How the results depend on the processing

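None of the 10 genes passed the adjusted threshold under any of the 17 alternatives, and Hey1 had an unadjusted p under 0.05 in all of them. Over the leave-one-out fits the log2 fold change ran from -1.51 to -0.92 for Hey1, 0.21 to 0.53 for Hes1, -4.32 to 0.03 for Hes5, -0.86 to 0.41 for Dll1, -2.39 to -0.08 for Dll3, -1.83 to -0.39 for Dll4, -1.45 to -0.23 for Hes6, -1.34 to -0.18 for Notch1, 0.32 to 0.95 for Notch2 and -0.14 to 0.24 for Notch3. Without Tbx3 cKO 3 the signs of Hes5 (0.032) and Dll1 (0.407) turned, and without wild type 1 that of Notch3 (-0.137). With Tbx3 cKO 3 and wild type 1 dropped the signs turned for Notch1 (0.042), Notch3 (-0.165), Dll1 (0.581), Dll3 (0.47), Hes5 (0.341) and Hes6 (0.028). With library weights Notch3 was at -0.063. The cause was not tested. Notch1, Dll4 and Hes6 had an unadjusted p under 0.05 only where Tbx3 cKO 1 was left out. For Notch2 this held only without Tbx3 cKO 2. For Hes1 it held with quantile normalization, with library weights, without Tbx3 cKO 3, and without both Tbx3 cKO 3 and wild type 1.

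The count of genes called over the whole table was 12, and it was 7 by limma-voom, 55 with library weights, 43 with Tbx3 cKO 3 and wild type 1 dropped, and 1 to 10 with 1 library left out. It was 1 without any single library other than Tbx3 cKO 3. With Tbx3 cKO 3 and wild type 1 dropped, the receptor cleavage median turned from 0.11 to -0.065 and that of ligand endocytosis from -0.13 to 0.002. With 1 library left out, the median of other Hes and Hey genes (0.18) ran from -0.16 to 0.81, that of receptors and ligands outside the 10 (-0.005) from -0.285 to 0.19, and the ligand minus effector gap (0.24) from 0.06 to 0.43. The other role medians kept their sign. With the replicate number as a block 13 genes were called, none of them among the 10, and Hey1 had an adjusted p of 0.112. Deviations of same-numbered libraries had correlations of 0.33, 0.018 and 0.042 for numbers 1, 2 and 3, and not every sample correlated best with its own number, so the numbers were not taken as pairs. Depth limits the low values of Hes5 and Dll3 in Tbx3 cKO 3, which rest on 6 and 16 estimated reads.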

Other observations

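The genes whose pattern over the 6 libraries was most like a member were sought among 8557 genes with a mean of at least 500, by the Pearson correlation of log2(value + 1), given as a description. For Hes5 they were Tkfc (0.999), the zinc finger factor Casz1 (0.995) and Foxn4 (0.995). Foxn4, a factor of retinal progenitors, was 4825, 3612 and 4334 in the wild types and 4123, 2654 and 61.0 in the knockouts. Tkfc was 674, 639 and 654 against 661, 637 and 482, a far smaller fall in Tbx3 cKO 3 than that of Hes5. The correlation does not measure the size of a change. Hes5 and these genes were all lowest in Tbx3 cKO 3, and the correlations with Hes5 lean heavily on that library. For Dll1 they were Ppp1r14b (0.999), Rgs16 (0.993) and Frat2 (0.992). Rgs16, a regulator of G protein signalling, shared the high Tbx3 cKO 1 and low Tbx3 cKO 3 of Dll1, at 1241, 777 and 1018 against 1455, 912 and 275. For Hes6 they were the nuclear receptor Rorb (0.999), Senp2 (0.997) and Kdr (0.997). Kdr, the receptor for Vegfa that stands in the endothelial list, was 4232, 2427 and 3066 against 2978, 2301 and 902, and so followed Hes6 in these libraries, while the endothelial gene Cdh5 was 66.3, 506 and 380 against 743, 291 and 1021. For Hes1 they were Dvl1 (0.987), Mettl25b (0.984) and Btg1 (0.979), with Dvl1, a transducer of Wnt signals, at 1286, 1136 and 1280 against 1655, 1484 and 1215.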
